A study of Mus musculus with 2 samples.

Results

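The aminoacyl-tRNA synthetases are the enzymes that join each amino acid to its transfer RNA. Here they were followed in Flk-1-positive early mesodermal cells of the mouse. The members are the 30 genes, each with 1 probe, whose symbols in the array's annotation follow the synthetase naming pattern, out of 16444 named genes on the array. By function, 18 encode cytosolic enzymes or subunits and 11 encode mitochondrial enzymes. The remaining probe carries the name Hars2 and was placed in neither group; it read 234 in revertant and 178 in gene-trapped cells, which after normalization is a log2 difference of -0.04. In older annotation that symbol was also used for Dtd1, a deacylase that proofreads transfer RNA, and the mitochondrial histidine enzyme has its own probe on this array under its older name Harsl. For the same reason Vars2 was read as the cytosolic valine enzyme, now Vars, since the mitochondrial one appears as Vars2l. The older names Farsla, Farslb, Aarsl and Rarsl stand for the current Farsa, Farsb, Aars2 and Rars2, Harsl for the current Hars2, and Mars for Mars1.

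Gene-trapped embryonic stem cells, in which both alleles of AU019823 were disrupted by an inserted cassette, were compared with revertant cells whose genotype the labels call almost identical to the wild type. Both had been grown on OP9 cells, a stromal line that promotes blood formation, and sorted for Flk-1, the product of Kdr. The labels give day 4.5, a coculture of 4 days, and total RNA from 350000 revertant and 300000 gene-trapped cells. There was 1 one-colour array per group and no replicate. Every difference therefore compares these libraries, without a p-value or standard error, and the number of arrays limits its precision. The samples carry different codes whose meaning the labels do not state, and where a code stands for a clone, the clone and the genotype cannot be told apart.

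Probes had a median spot signal of 47.5 in the revertant library and 38.6 in the gene-trapped one. The background limit, the mean of the blank spots plus 2 SD, was 25.0 and 22.3. All 30 synthetase probes and 13753 named genes exceeded it on both arrays. Of the early mesoderm markers fixed as a list, 8 of 8 were above background on both arrays, Kdr among them with spot signals of 1025 and 537 (log2 difference -0.65, the lowest of the list). The list went both ways, with a median of 0.33, 5 of 8 genes above 0 and 3 below. Over all named genes above background, 46.6% lay below 0. Mixl1 had 1.99, Etv2 1.30, T 0.76, Mesp1 0.51 and Lmo2 0.16, while Hand1 had -0.44 and Pdgfra -0.02. The list's summed spot signal was 3403 in the revertant and 4309 in the gene-trapped library. Its part in the synthetase differences was not tested. The pan-leukocyte gene Ptprc was above background on neither. AU019823 itself had spot signals of 486 and 297, a log2 difference of -0.39; where its probe lies relative to the trap is not given, so it does not check the labels. Positive control spots, 24 of each of 2 kinds, gave SDs of the log2 ratio of 0.108 and 0.0989, which covers spot-to-spot error only and says nothing of the spread between cultures. In these bulk samples fewer cells of a type and less RNA per cell cannot be told apart.

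Cells hold mostly separate enzymes for translation in the cytosol and in mitochondria, all encoded in the nucleus. For glycine and lysine 1 gene, Gars and Kars, serves both compartments; these were counted as cytosolic. Several cytosolic enzymes join with scaffold proteins in a multi-synthetase complex. Many cytosolic synthetase genes are known targets of ATF4, the transcription factor that raises amino acid supply genes when amino acids are short or the endoplasmic reticulum is stressed.

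Cytosolic synthetase signals were mostly lower in gene-trapped than in revertant cells, whereas mitochondrial ones lay close to 0 difference. Among the 18 cytosolic genes the median log2 difference (gene-trapped minus revertant, normalized signals) was -0.33, with 14 below 0. Among the 11 mitochondrial genes it was -0.02, with 6 below 0. Subtracting the scanner's local background, a setting described last, removed the difference between the groups, with medians of 0.025 and 0.029. Over all 13753 named genes above background the median was 0.01 and 46.6% lay below 0. At the fixed size of 2-fold, 2 of 30 synthetases were lower, against 1.08% of all named genes, and 0 were higher, against 0.334%; the share over both directions was 1.41%. At 1.5-fold, a size added after the values had been seen, 8 were lower, all of them cytosolic, and 1 mitochondrial gene was higher. The shares over all named genes were 3.52% lower, 2.28% higher and 5.8% in either direction.

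**Figure D1:**
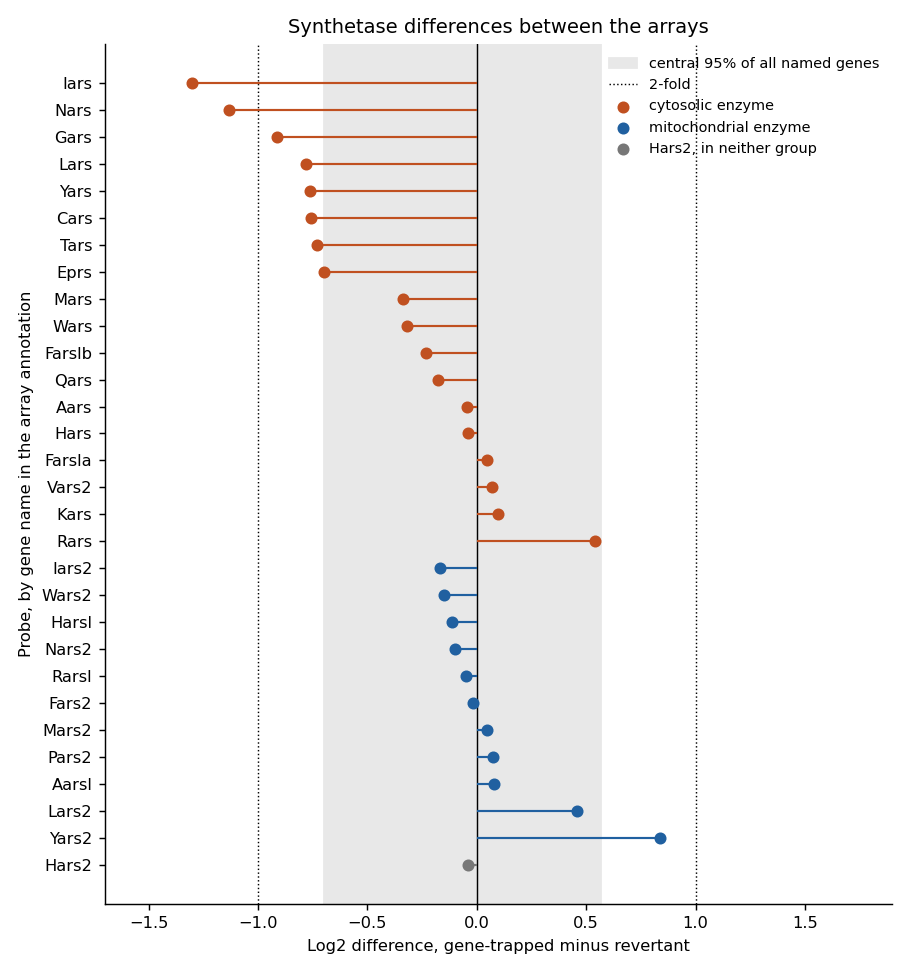
Log2 difference of normalized signal, gene-trapped minus revertant, for each of the 30 synthetase probes (1 array per group, so no error bars). Grey marks the central 95% of 13753 named genes, from -0.70 to 0.57, and dotted lines mark 2-fold; Iars and Nars lie beyond 2-fold on the left and Yars2 is the rightmost.

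The largest difference belonged to Iars, which charges the isoleucine transfer RNA. Its spot signal was 2815 in revertant and 922 in gene-trapped cells. After normalization the log2 difference was -1.30 (2.47-fold lower), rank 57 from the lowest of 13753 genes. Nars, the asparagine enzyme, had spot signals of 3278 and 1211 and a log2 difference of -1.14 (2.20-fold lower). These were the 2 members beyond 2-fold. Gars, the glycine enzyme that also serves mitochondria, had 8449 and 3486, a log2 difference of -0.92. Lars, for leucine, had 730 and 339, a difference of -0.78. For Yars, the tyrosine enzyme, spot signals were 2565 and 1253 and the difference -0.76. These 3 lay between 1.5-fold and 2-fold lower. Cars, for cysteine, had 950 and 457, a difference of -0.76. Tars, for threonine, had 2045 and 1040, a difference of -0.73. Eprs, a single protein that charges both glutamate and proline, had 2598 and 1323, a difference of -0.70. With Eprs the group of 8 ends, at rank 345 from the lowest, and a gap separates it from the next member at -0.34.

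Stromal, blood and endothelial markers, of cells that such a culture could hold, were also mostly lower in the gene-trapped library. The summed spot signal of 9 stromal and fibroblast markers was 4619 in revertant and 1666 in gene-trapped cells, of which Acta2, smooth muscle actin, gave 3603 and 1195. Of these, 8 exceeded the background limit on both arrays, and 6 of the 8 had a difference below 0. The matrix protein gene Dcn was above background on neither array. The 6 blood and endothelial markers summed to 665 and 217, with Cdh5 above background on the revertant array only and Ptprc on neither. The 3 markers of undifferentiated stem cells that were measured summed to 214 and 180, but after normalization 0 of 3 lay below 0 and their median log2 difference was 0.07. The part of any of these in the synthetase differences was not tested.

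The other 10 cytosolic members lay within 1.5-fold. Mars, the methionine enzyme, had spot signals of 2701 and 1775 and a log2 difference of -0.34. Wars, for tryptophan, had 974 and 649, a difference of -0.32. Farslb, the beta subunit of the phenylalanine enzyme, had 90.7 and 56.2, a difference of -0.23. Its partner in the same enzyme, the alpha subunit Farsla, had 668 and 588, a difference of 0.05. Both subunits lay within 1.5-fold, and the value of Farsla was smaller than the spot-to-spot SD and turned to -0.03 under median scaling. In the authors' deposited table the dim Farslb had -0.54, which is 1.45-fold lower, and Farsla had 0.19. Qars, for glutamine, had 2004 and 1494, a difference of -0.18. Hars, for histidine, had 1382 and 1127, a difference of -0.04. Kars, the lysine enzyme of both compartments, had 3767 and 3270, a difference of 0.10. Gars and Kars, which share that double duty, therefore stood apart: -0.92 against 0.10. Vars2, read as the cytosolic valine enzyme, had 473 and 405, a difference of 0.07. Aars, for alanine, had 33.1 and 26.4, near the background limits, so its difference of -0.05 says little about the transcript. Rars, for arginine, was the 1 cytosolic member clearly above 0, with spot signals of 1417 and 1766 and a difference of 0.54. Its raw signal was the only one among the cytosolic members that was higher on the gene-trapped array.

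**Figure D2:**
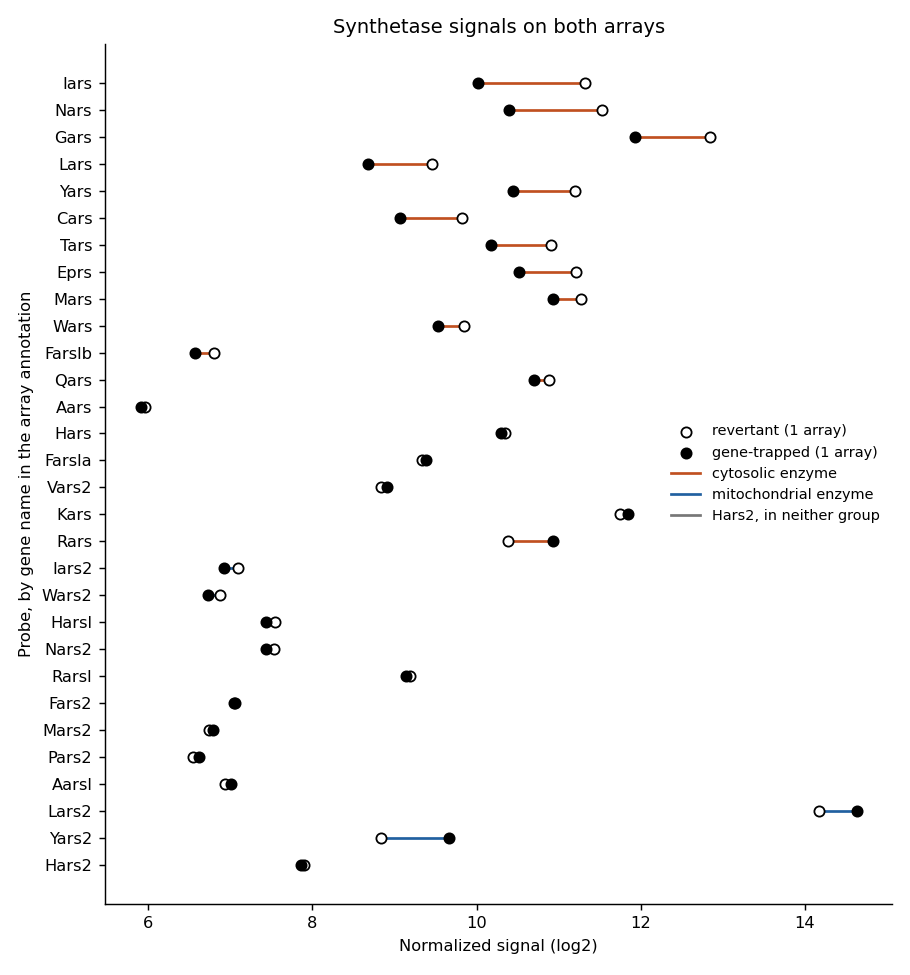
Normalized log2 signal of each synthetase probe on the revertant (open) and gene-trapped (filled) array, 1 array each. Signals of different probes are not comparable with each other; within a row, the filled point lies well left of the open one for Iars to Eprs and right of it for Rars, Lars2 and Yars2.

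Cytosolic enzymes inside and outside the multi-synthetase complex had medians that were close in the main setting and further apart in the deposited table. The 7 complex members measured here (Eprs, Iars, Kars, Lars, Mars, Qars and Rars) had a median of -0.34 and ran from -1.30 for Iars to 0.54 for Rars. The 11 others had a median of -0.32 and ran from -1.14 to 0.07. In the authors' deposited table the medians were -0.23 inside and -0.54 outside the complex. The 3 scaffold genes of the complex went both ways. Jtv1, now Aimp2, had a log2 difference of 0.53, Eef1e1 had 0.33 and Scye1, now Aimp1, had -0.34. Of their spot signals, those of Jtv1 went from 1154 to 1421 and those of Scye1 from 2320 to 1519.

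Some synthetase promoters hold a short stress motif. The letters TGATGNAA, searched on both strands, are a form of the C/EBP-ATF composite element that ATF4 is known to bind. They were looked for in RefSeq promoter windows (build GRCm38.p6), each running from 250 bases before to 50 bases after a gene's start. A window was on hand for 11 of the 18 cytosolic and 9 of the 11 mitochondrial genes. It held a match in 5 of the 11 cytosolic genes (Iars, Gars, Yars, Tars and Aars) and in 0 of the 9 mitochondrial genes. Counted the same way, 4.51% of all 27025 genes with a window had a match, and 3.97% of all 32851 windows did. With so small a share, 0 of 9 does not set the mitochondrial genes apart. The narrower TGATGCAA, every match of which is also a match of TGATGNAA, occurred in Iars, Yars, Tars and Aars. It occurred in 1.03% of all genes with a window and in 0.895% of all windows. A match is a description of the letters and not of a bound site. Of the 8 genes with the lowest differences, Nars, Lars and Cars had no window and were not searched, and Eprs had a window without a match. Wars, Hars, Vars2, Rars, Harsl and Pars2 had no window either. The stretches that hold the matches are shown because 4 of the 5 genes are among the 8 with the lowest differences; capitals mark the match on the printed strand, where TTGCATCA and TTTCATCA are matches read from the other strand.
Iars: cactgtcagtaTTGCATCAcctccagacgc
Yars: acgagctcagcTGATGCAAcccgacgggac
Tars: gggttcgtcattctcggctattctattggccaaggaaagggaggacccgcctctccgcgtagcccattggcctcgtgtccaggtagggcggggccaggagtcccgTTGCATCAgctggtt
Gars: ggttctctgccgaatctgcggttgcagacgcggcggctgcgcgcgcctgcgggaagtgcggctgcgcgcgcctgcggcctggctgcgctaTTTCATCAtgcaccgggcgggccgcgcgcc
Aars: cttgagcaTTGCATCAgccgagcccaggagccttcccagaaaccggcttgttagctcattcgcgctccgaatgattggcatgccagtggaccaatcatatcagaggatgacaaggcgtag

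The Iars stretch is chr13:49682126-49682155 on the plus strand, and its match covers positions 8 to 15 counted from 1 at the gene's first base. The Yars stretch is chr4:129189895-129189924 (plus), with the match at 4 to 11. For Tars the stretch is chr15:11399659-11399778 (minus), with the match at -15 to -8. Gars is shown over chr6:55037881-55038000 (plus), with the match at -30 to -23. The Aars stretch is chr8:111033722-111033841 (plus), with the match at -112 to -105, and another match lies after its start. The matches of Iars and Yars thus lay just inside the transcript and those of Tars and Gars just before it. The 120 bases before the start, the stretch shown for Tars, Gars and Aars, are also given for the mitochondrial isoleucine and tyrosine enzymes. They lie at chr1:185329402-185329521 (minus) and chr16:16302845-16302964 (plus) and hold no match. These stretches do not cover the bases after the start, where Iars and Yars have their matches. The whole windows of Iars2 and Yars2, which do cover them, held no match either.
Iars2: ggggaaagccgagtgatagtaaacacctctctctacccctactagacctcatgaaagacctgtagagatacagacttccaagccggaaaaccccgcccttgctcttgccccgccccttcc
Yars2: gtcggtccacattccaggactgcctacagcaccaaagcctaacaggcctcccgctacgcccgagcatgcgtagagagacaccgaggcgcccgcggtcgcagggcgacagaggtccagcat

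Cytosolic genes with a match had a median log2 difference of -0.76 (5 genes, -1.30 to -0.05), and those with a window but no match had -0.20 (6 genes, -0.70 to 0.10). Nars, Lars and Cars, without a window, were in neither set. Over all 11017 named genes above background with a window, synthetases included, 326 held TGATGNAA, and their median was 0.00 against 0.01 for the rest. Of the 326, 7.67% were at least 1.5-fold lower, against 3.41% of the rest. For TGATGCAA the shares were 16.5% of 79 genes against 3.45% of the rest. The median gene with either motif thus lay near 0, and most genes with it were not 1.5-fold lower.

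Most mitochondrial enzymes lay close together. Of the 11, 9 had log2 differences between -0.17 and 0.08. Iars2, for isoleucine, was lowest, with spot signals of 119 and 79.3 and a difference of -0.17. Wars2, for tryptophan, had 97.2 and 65.8, a difference of -0.15. Harsl, for histidine, had 176 and 125, a difference of -0.12. These were the lowest 3, and none came near 1.5-fold. Nars2, for asparagine, had 174 and 125, a difference of -0.10. Rarsl, for arginine, had 604 and 484, a difference of -0.05. Fars2, the single-chain phenylalanine enzyme, had 116 and 88.0, a difference of -0.02. Raw signals of these 6 were lower on the gene-trapped array, which was dimmer as a whole. Mars2, for methionine, had 85.3 and 69.8, a difference of 0.05. Pars2, for proline, had 69.4 and 58.9, a difference of 0.07. Aarsl, for alanine, had 103 and 85.9, a difference of 0.08. The spot signals of these 9 in revertant cells ran from 69.4 to 604, and an offset of 50 in the background model makes differences of dim probes smaller than the ratio of their signals. In the authors' deposited table, which has no such offset, the mitochondrial median was 0.04 and the cytosolic median -0.46.

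Of the mitochondrial members 2 stood above the rest. Yars2, which charges the mitochondrial tyrosine transfer RNA, had spot signals of 471 and 723. Its log2 difference was 0.84 (1.79-fold higher), rank 13664 from the lowest of 13753, and in the authors' deposited table it was 2.03-fold higher. Lars2, the leucine enzyme, had 21110 and 22274 and a difference of 0.46, which was 0.22 under median scaling. Both were brighter on the gene-trapped array in raw signal too, although that array was dimmer as a whole. The Lars2 probe was the brightest synthetase probe on both arrays, while the other mitochondrial ones read at most 604 in revertant cells. Whether it reads the Lars2 transcript alone was not tested.

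Compared amino acid by amino acid, the cytosolic enzyme had the lower difference in 9 of 12 pairs, which cover 11 amino acids because the phenylalanine enzyme has 2 cytosolic subunits. The widest gap was that of tyrosine: Yars minus Yars2 was -1.60, and the genes lay on opposite sides of 0. Leucine followed, with Lars minus Lars2 at -1.24, again in opposite directions. The gap was -1.13 for isoleucine and -1.03 for asparagine, where the cytosolic gene was lower and the mitochondrial one near 0. These 4 gaps exceeded 2-fold. Proline had a gap of -0.77 (Eprs against Pars2) and methionine one of -0.39. Tryptophan had -0.17, and alanine had -0.12 with the dim Aars probe. Phenylalanine gave -0.21 with Farslb and 0.07 with Farsla. Histidine had 0.07. Arginine was the reverse of tyrosine, with Rars minus Rarsl at 0.59. The median gap was -0.30. In the authors' deposited table the cytosolic enzyme was the lower in 8 of 12 pairs, with a median gap of -0.47. There the gaps of tyrosine (-1.69) and leucine (-1.23) were beyond 2-fold, and those of isoleucine and asparagine, both -0.92, were not. After subtraction of the local background it was the lower in 7 of 12 pairs. None of the 4 gaps was beyond 2-fold then: tyrosine had -0.90, isoleucine -0.61, asparagine 0.11 and leucine 0.97.

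**Figure D3:**
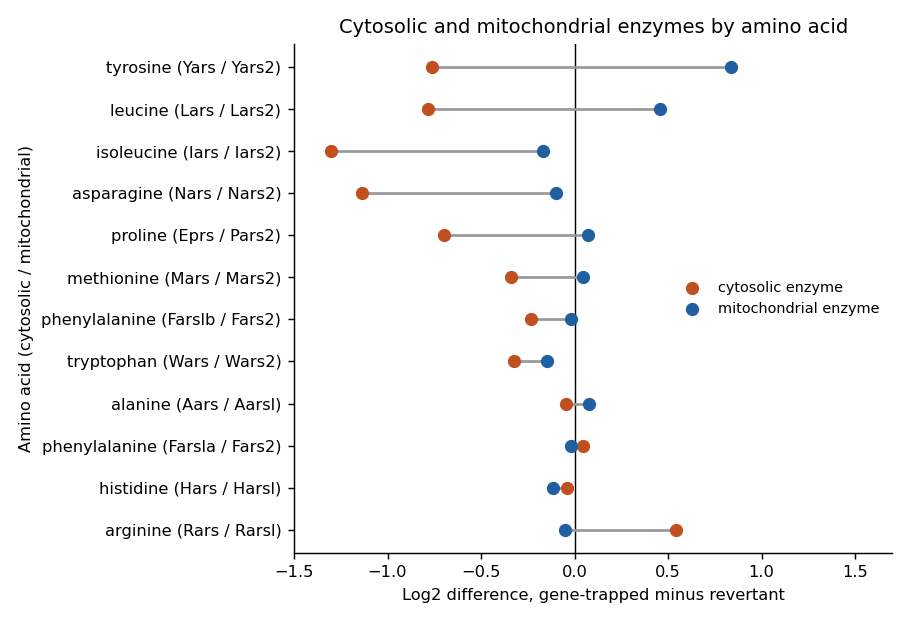
Log2 difference (gene-trapped minus revertant) of the cytosolic and the mitochondrial enzyme for each amino acid with both on the array, 12 pairs, 1 array per group. The cytosolic point lies left of the mitochondrial one in 9 pairs, most widely for tyrosine at -0.76 against 0.84, and right of it for arginine, histidine and Farsla.

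Among the neighbouring gene lists, that of amino acid supply and ATF4-linked genes was lower and reached further than the synthetases. It had 33 genes on the array, all above background, with a median log2 difference of -1.04. Of these, 17 were at least 2-fold lower, against 1.08% of all named genes, and 0 were at least 2-fold higher. At 1.5-fold 25 were lower, against 3.52% of all named genes. Only 3 lay above 0. The arginine and lysine transporter gene Slc7a3 had spot signals of 622 and 35.5 and a log2 difference of -3.09, the lowest of the list. Trib3, a pseudokinase induced by stress, had 440 and 49.5, a difference of -2.30. Slc1a4, a neutral amino acid transporter, had 409 and 53.8, a difference of -2.12. Stc2, which encodes a secreted glycoprotein, had 257 and 29.6, a difference of -2.02. Atf4 itself had 5017 and 2817, a difference of -0.52. Asns, the enzyme that makes asparagine, had 4242 and 1172, a difference of -1.55, beside -1.14 for Nars, which charges transfer RNA with it. With the local background subtracted, the list median was -0.83. In that setting Slc7a3 had 0.11 and Asns -0.017, while Trib3 had -1.73, Slc1a4 -0.94, Stc2 -0.90 and Atf4 -0.67.

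GCN2, the kinase that senses uncharged transfer RNA, its partners and related eIF2 alpha kinases showed smaller differences. Of the 6 genes measured in the list around GCN2, 0 were 1.5-fold apart and the median was -0.16. Eif2ak4, which encodes GCN2 itself, had -0.41, Eif2ak3, the endoplasmic reticulum kinase PERK, had -0.43, and Impact, an inhibitor of GCN2 activation, had -0.22. Eif2s1, which encodes the eIF2 alpha subunit they phosphorylate, had -0.11, Eif2ak2, a kinase activated by double-stranded RNA, had 0.08 and the GCN2 partner gene Gcn1l1 had 0.10. Gcn1l1 had spot signals of 29.3 and 28.7, near the background limits, so its value says little about the transcript. In the authors' deposited table Gcn1l1 had 0.69 and Eif2ak3 -0.75, both beyond 1.5-fold. Of 5 genes of transfer RNA handling, Xpot, which exports transfer RNA from the nucleus, was lower at -0.92 (spot signals 391 and 150). It turned to 0.68 with the local background subtracted, a column that held 402 at its spot in revertant cells. The other 4 lay between 0.01 and 0.30. Those 4 were the RNA-processing gene Elac2 at 0.30, Trnt1, which adds the CCA end, at 0.08, Pstk at 0.02 and Aarsd1 at 0.01. Aarsd1, with spot signals of 27.7 and 24.2, also lay near the background limits.

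The lists of mitochondrial translation factors and cytosolic elongation factors, which also hold genes acting away from the ribosome, had medians near 0. Mitochondrial translation factors, listed with enzymes that modify charged transfer RNA, had a median of 0.09 over 10 genes, with 0 at 1.5-fold. The extremes were Mrrf, the ribosome recycling factor, at -0.49 and Tsfm, an elongation factor, at 0.47. Next came Qrsl1, one of the modifying enzymes, at 0.32 and Gfm1 at 0.23. Cytosolic elongation factors had a median of -0.02 over 7 genes, running from -0.26 for the kinase gene Eef2k to 0.14 for Eef1d. Both probes were dim, with spot signals of 55.5 and 33.0 for Eef2k and 45.2 and 43.2 for Eef1d. In the authors' deposited table they had -0.98 and 0.40. Eef1b2 had 0.13 and Eif5a 0.11.

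**Figure D4:**
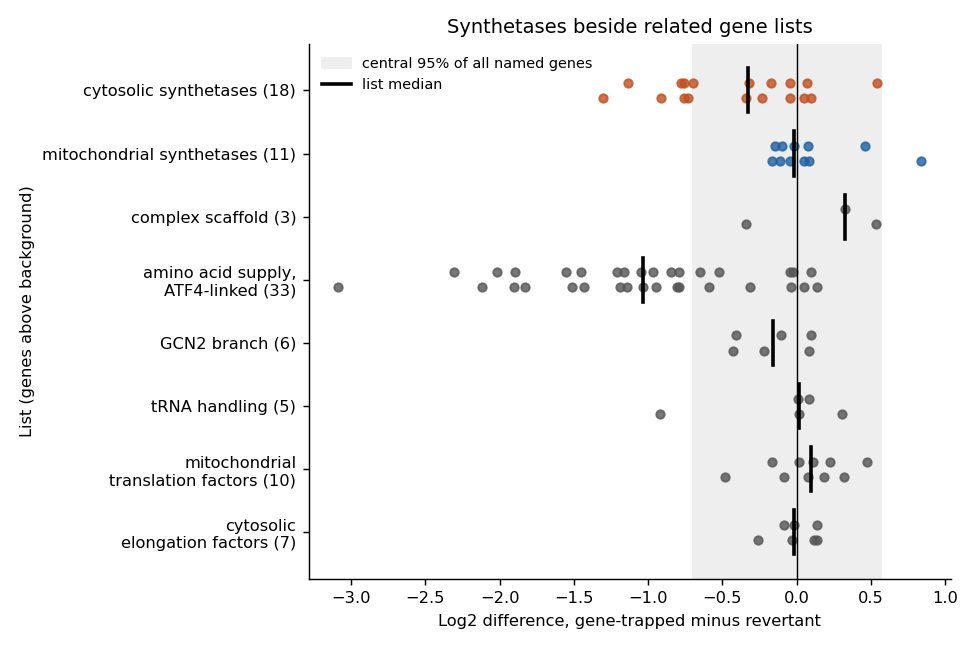
Log2 difference (gene-trapped minus revertant) of every gene above background in the synthetase groups and 6 related lists, with the list median as a black bar and the central 95% of named genes in grey, 1 array per group. The amino acid supply list is centred at -1.04 and the cytosolic synthetases at -0.33, while the mitochondrial synthetases are centred at -0.02.

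The group of 8 lower synthetases depended on 1 processing choice. All 8 were at least 1.5-fold lower under median scaling, 75th percentile scaling, cyclic loess, an offset of 16, no background correction and in the authors' deposited table. With the scanner's local background column subtracted, 4 of 8 were (Iars at -0.64, Gars at -1.32, Yars at -0.60 and Eprs at -0.83). There Nars had 0.11, Lars 1.52, Cars 0.65 and Tars -0.44, the cytosolic median was 0.025 and the gap between compartments -0.0039. The 2 genes beyond 2-fold lower in that setting were Gars and Wars, the latter at -2.15, and Lars, Rars and Rarsl were beyond 2-fold higher. That column followed the spots: at Lars it held 713 beside a spot signal of 730 in revertant cells and 148 beside 339 in gene-trapped cells. Over the 8 genes it came to a median of 65.3% of the spot signal in revertant and 42.6% in gene-trapped cells.

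**Figure D5:**
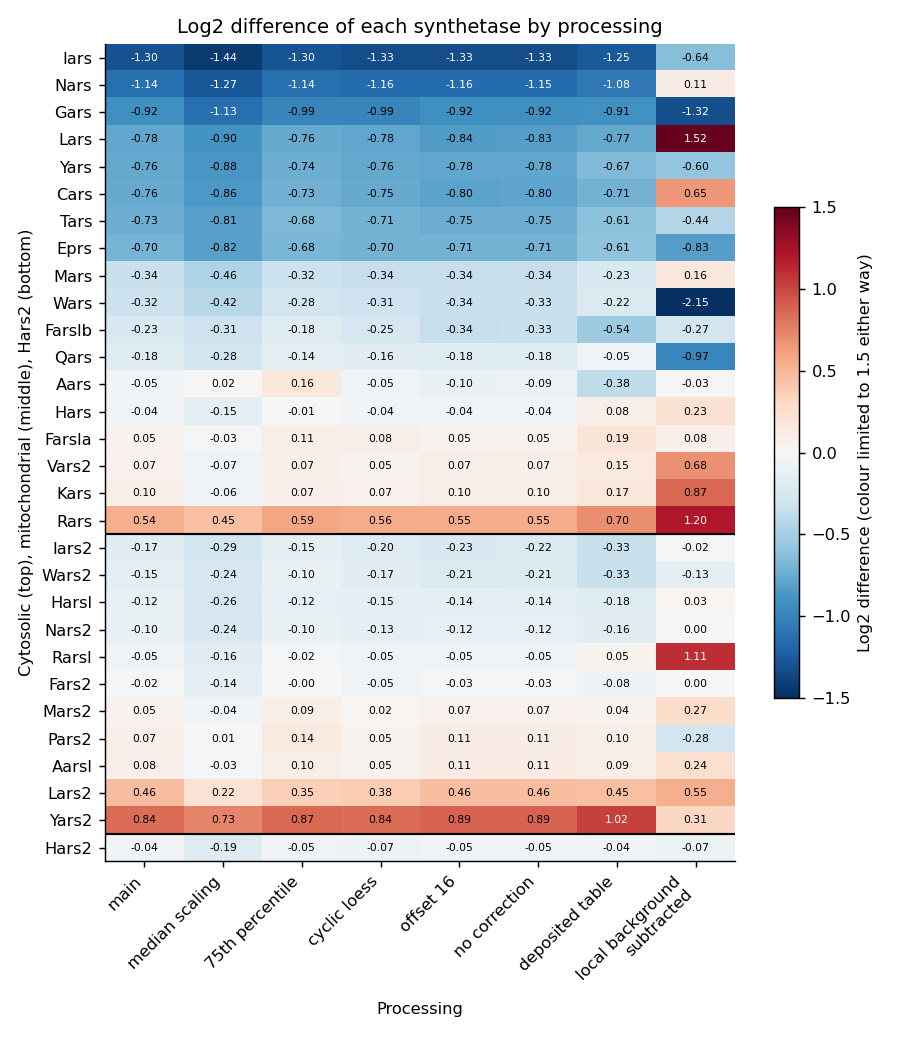
Log2 difference of each of the 30 synthetases (rows) under 8 ways of processing (columns); each cell prints its value, blue lower and red higher in gene-trapped cells, 1 array per group. Columns other than the last keep the block from Iars to Eprs lower; with the local background subtracted, Lars turns to 1.52 and Wars to -2.15.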

How the data were processed

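RNA of 1 sample per group was amplified, labelled with Cy5 and hybridised to a TORAY array, per the labels' protocols. Per the file headers, the scanner files give each spot as a linear intensity, its median at 635 nm, read at 3 gains and joined by least squares, with no background subtracted. A table of processed intensity that the authors deposited follows the scanner values on a straight line per array and has a median of 25.0 in each column. How it was made is not given in the sources used here. In it the revertant signal of Aars went from 33.1 to 7.04 and that of Lars2 from 21110 to 13861. Dim signals thus lost a larger share than bright ones, which affects the differences of dim probes there. Spot intensities were corrected with normexp (offset 50) in limma 3.58.1 (R 4.3.3), quantile-normalized and put on the log2 scale, without control spots and without 2 probes that the scanner had marked as poor. The local background column was not subtracted, since its log2 values followed the spot (correlation over named probes 0.97 for revertant and 0.95 for gene-trapped cells). A gene's brightest probe by mean spot median was used. Gene names are those of the platform annotation and can be old; 22 of 30 member names are current in a RefSeq table of GRCm38.p6. No test was possible with 1 array per group, so sizes, counts and medians are given beside those over all named genes. Named genes are all members, AU019823, Kdr and, per list, the 4 largest absolute differences (all of a list of 6 or fewer); Atf4, Asns and single markers were added after their values were seen. The normalization was tested on a simulated copy of the revertant array, with 2-fold shifts planted in bright probes only. Dim probes, among them most of the mitochondrial synthetases, were not covered by that test. Tables came from Python 3.11.15 (pandas 2.3.3, numpy 2.4.6). Members, lists and alternatives were chosen with earlier results of these data known.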

Additional observations from a re-analysis of the deposited data

Results flagged for a closer look

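Signal outside the main measurement was found in 2 places. The column of local background, left unused in the comparison, had a median of 530 at the synthetase spots in revertant and 311 in gene-trapped cells, where blank spots had 14.2 and 15.6. Probes under older names that the naming pattern misses were also above background: Vars2l, now Vars2, the mitochondrial valine enzyme, had spot signals of 95.8 and 84.5 and a log2 difference of 0.13. Tarsl1, now Tars2, the mitochondrial threonine enzyme, had 356 and 333 and a difference of 0.19, beside -0.73 for Tars.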

How the results depend on the processing

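No paired analysis was possible because neither group has a replicate. Processing was varied in 10 ways; changes of membership and the 1.5-fold size were added after the data had been seen. Of the 30 members, 14 kept their sign in all 10. Among these settings, no filter, a stricter filter and the mean of probes could not change any member. Each member has 1 probe, and it lies above the stricter limit too. The cytosolic median was -0.44 under median scaling, -0.46 in the authors' deposited table and 0.025 with the local background subtracted. The mitochondrial median, close to 0, was -0.14 under median scaling, 0.029 after subtracting the local background, 0.037 in the authors' deposited table, 0.082 as a mean and 0.048 with Vars2l and Tarsl1 added. The gap between them was -0.0039 after that subtraction and -0.50 in the deposited table. With that column subtracted Nars turned to 0.11. The 75th percentile scaling puts the median of all named genes at 0.15. Synthetases at least 2-fold higher numbered 3 after that subtraction and 1 in the deposited table; at 1.5-fold, 8 were lower and 1 higher. Of all named genes, 238 were 2-fold lower with offset 16, 227 without background correction and 571 of 14203 in the deposited table, and 484 were 1.5-fold lower. Higher genes numbered 87, 84 and 285 in those settings, 280 with the local background subtracted and 314 at 1.5-fold. A smaller offset widens differences of dim genes by construction; for the other settings the cause was not tested. Aars is limited by its low signal over background.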

Other observations

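The synthetases form 2 structural classes with unrelated catalytic domains. Among cytosolic enzymes the 9 of class I had a median log2 difference of -0.34 and the 8 of class II one of -0.14, Eprs holding both; in the authors' deposited table the order was the reverse, at -0.23 and -0.46. Each class held genes of the lower group: Iars, Lars, Yars and Cars in class I, Nars, Gars and Tars in class II. Among mitochondrial enzymes the medians were 0.00 over 6 genes and -0.02 over 5.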
